A study of Homo sapiens with 6 samples.

Results

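The chaperonin CCT, also called TRiC, was examined through its 8 subunit genes, TCP1, CCT2, CCT3, CCT4, CCT5, CCT6A, CCT7 and CCT8. They were taken by gene symbol from a table of 58735 genes, and all 8 were found and passed the filter on expression. RNA was sequenced from HCT116, an established human colorectal carcinoma cell line labelled as wild type (WT). A control transfection (CTR) and a transfection with a miR-8485 mimic (miR-8485), a synthetic RNA that stands in for the mature miRNA, given at 50 nM for 48 h, had 3 libraries each. The libraries came from independent biological replicates per the labels. All groups shared the cell line, and the sequence and dose of the control transfection were not given in the sources used here.

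CCT is a barrel of stacked rings in the cytosol, and each ring holds each of the 8 related but different subunits in a fixed order. An unfolded protein binds inside the open barrel and is enclosed and folded as the subunits bind and hydrolyse ATP. Actin and tubulin are its best known clients, and WD40 proteins such as CDC20 also depend on it. Since every ring needs every subunit, the question addressed was whether the 8 mRNAs moved together when the mimic was added.

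The libraries held 17473874 to 18480047 fragments on the listed genes, and each subunit had 5922 to 17871 fragments in each library, so that counting error was small for all 8. Libraries of the same group were closer to each other than to those of the other group, with a chi-square per gene of 2.68 to 9.60 in the 6 pairs within groups and of 54.4 to 62.4 in the 9 pairs between groups. The 5 epithelial markers of the cell line were above 1 FPKM (fragments scaled by gene length and by library total) in every library. Their summed level was 1518 to 1646 FPKM in CTR and 1004 to 1036 FPKM in miR-8485. KRT8 (log2 fold change −0.62) and KRT18 (−0.97) fell, CDX2 rose (0.81), and EPCAM and CDH1 (both −0.05) did not pass the threshold of the test described below. Of 10 markers of leukocytes, endothelium and fibroblasts, the leukocyte gene CD3E was at 0 in every library, COL1A1 was above 1 FPKM and the others were at most 0.202 FPKM. The summed level of the 10 was 4.57 to 4.82 FPKM in CTR and 6.61 to 6.75 FPKM in miR-8485, nearly all of it COL1A1, and the part of these markers in the results below was not tested.

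A miRNA pairs with mRNAs mainly through its seed, bases 2 to 8, and sites in 3′ untranslated regions (3′ UTRs) are the best known to lower an mRNA. The mimic's sequence is that of the study's methods and was not checked against a miRNA reference. It is shown with the matches to its whole seed in the subunit transcripts, the places where the whole seed could pair with a CCT mRNA. The seed is in capitals in the mimic, and the capitals in the transcripts mark the complementary letters TGTGTGT. Positions and strands are those of hg38, with the 3′ UTR and coding sequence of the canonical transcript in GENCODE release 44.
miR-8485 mimic, 5′ to 3′: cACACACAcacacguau
TCP1, 3′ UTR, chr6:159778725-159778754, minus strand: cattctctccagTGTGTGTaacagggtcac
CCT6A, 3′ UTR, chr7:56063899-56063928, plus strand: tgaaggtgaagtTGTGTGTtactaggctgt
CCT5, coding sequence, chr5:10262506-10262535, plus strand: ttcacgatgcttTGTGTGTcatccggaacc

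TCP1 and CCT6A were thus the 2 subunit genes of 8 with these letters in the 3′ UTR, and CCT5 was the 1 with them in the coding sequence. Among 10675 tested genes with a 3′ UTR, 28.9% held the same letters there and 10.7% held them in the coding sequence. The site of TCP1 lay 238 bases before the end of its 3′ UTR of 547 bases and was followed by A, and that of CCT6A lay 72 bases before the end of its 3′ UTR of 904 bases. CCT2, CCT3, CCT7 and CCT8 had 3′ UTRs of 144 to 245 bases, against a median of 1287 bases over tested genes. CCT4 had 607 bases and CCT5 had 1606 bases of 3′ UTR without the letters. Shorter matches of 6 letters, TGTGTG or GTGTGT, lay outside these sites in the CCT5 3′ UTR and the CCT2 5′ UTR. They also lay in the coding sequences of TCP1, CCT3, CCT6A and CCT7. Among the tested genes with a 3′ UTR, 49.8% held TGTGTG there and 42.4% held GTGTGT. In the coding sequence, 37.1% of the same genes held TGTGTG and 26.4% held GTGTGT. A match of letters is a description of the sequence and not a measured site.

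Differential expression analysis (limma on log2(FPKM + 0.1), two-sided, Benjamini-Hochberg over 12349 genes with a mean of at least 1 FPKM, threshold 0.05) showed that 4 of the 8 subunit genes fell in miR-8485 cells: TCP1, CCT6A, CCT8 and CCT2. None rose, by limma or by voom on fragments, and 0 had a positive change at an unadjusted p under 0.05 with either tool. Among all tested genes 59.6% were called, 30.5% as lower and 29.1% as higher (31.5% and 31.7% with voom), and among the 797 genes with a mean of at least 50 FPKM, the level of all 8 subunits, 32.2% fell and 42.8% rose. The median log2 fold change of the 8 subunits was −0.11, against −0.0041 for all tested genes and 0.07 for the genes of at least 50 FPKM. In bulk RNA, fewer cells of a kind and less RNA per cell cannot be told apart.

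TCP1 encodes the alpha subunit, which gave the complex its older name. Its levels were 118, 116 and 120 FPKM in the CTR libraries and 89.3, 92.1 and 90.2 FPKM in the miR-8485 libraries. The groups were well apart, the lowest CTR library lying above the highest miR-8485 library by more than the range within either group. The mean fell from 118 ± 2.23 to 90.5 ± 1.43 FPKM (SD, n = 3 libraries a group). This was a change of −23.3%, with a log2 fold change of −0.38 ± 0.04 (SE) with a limma adjusted p of 1.2e-04. It was the largest fall in the complex, yet 43.8% of all tested genes changed by more than TCP1 in one direction or the other.

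CCT6A encodes the zeta subunit in most tissues, while its paralog CCT6B is known from testis. CCT6A was at 119, 116 and 116 FPKM in CTR and at 96.7, 95.9 and 94.8 FPKM in miR-8485, again without overlap. The mean went from 117 ± 1.89 to 95.8 ± 0.982 FPKM (SD, n = 3), and the fold change was −0.29 ± 0.04 on the log2 scale (SE), with a limma adjusted p of 4.1e-04. CCT6A and TCP1, the subunits with the seed letters in the 3′ UTR, were the pair with the largest falls. CCT8 and CCT2 fell as well and lacked the letters, and a part of the letters in these falls was not tested.

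CCT8, the theta subunit, was at 178, 161 and 158 FPKM in CTR and at 138, 141 and 141 FPKM in miR-8485. CTR replicate 1 stood above the other CTR libraries, and the groups did not overlap. The log2 fold change was −0.24 ± 0.05 (SE; limma adjusted p = 0.0055), and without CTR replicate 1 it was −0.19.

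CCT2, the beta subunit, which has also been described as a receptor that delivers protein aggregates to autophagy, was at 131, 122 and 120 FPKM in CTR and at 107, 110 and 109 FPKM in miR-8485. Here too CTR replicate 1 was the highest and the groups did not overlap. CCT2 fell by 12.5%, with a log2 fold change of −0.19 ± 0.04 (SE) and a limma adjusted p of 0.0078. The changes of all 4 genes were below the median absolute log2 fold change of called genes, 0.50, and those of CCT6A, CCT8 and CCT2 were also below that of all tested genes, 0.33.

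**Figure D1:**
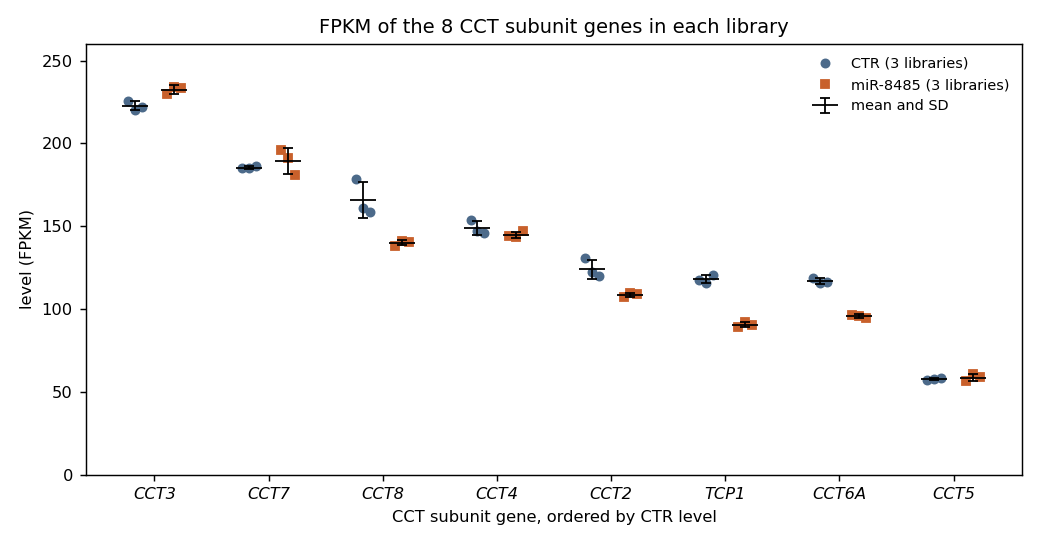
FPKM (vertical axis, from 0) of each CCT subunit gene (horizontal axis, ordered by CTR level) in the 3 CTR libraries (circles) and the 3 miR-8485 libraries (squares), with the mean and SD of each group. CCT8, CCT2, TCP1 and CCT6A sit lower in all 3 miR-8485 libraries than in any CTR library, whereas the groups lie close together or overlap for CCT7, CCT4 and CCT5, and CCT3 lies slightly higher in miR-8485 in FPKM but not in TPM.

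The other 4 subunits did not pass the threshold. CCT3, the gamma subunit, had the highest level of the 8, with 226, 220 and 222 FPKM in CTR and 230, 234 and 234 FPKM in miR-8485. All 3 miR-8485 libraries were above all 3 CTR libraries, but by little, and the log2 fold change was 0.06 ± 0.04 (SE; limma adjusted p = 0.174). With CCT3, the groups did not overlap for 5 of the 8 subunits, beside 66.5% of all tested genes.

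CCT7, the eta subunit, was at 185, 185 and 186 FPKM in CTR and spread over 196, 191 and 181 FPKM in miR-8485. The nearly equal CTR values lay inside the wider range of the miR-8485 libraries, and the log2 fold change was 0.03 ± 0.04 (SE; limma adjusted p = 0.597). CCT4, the delta subunit, was at 154, 147 and 146 FPKM in CTR and at 144, 144 and 147 FPKM in miR-8485, so that the groups overlapped, and its log2 fold change was −0.04 ± 0.04 (SE; limma adjusted p = 0.441). A variant of CCT4 and one of CCT5 are known from inherited sensory neuropathy in rat and human.

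CCT5, the epsilon subunit, was the least abundant in FPKM, which is a level per length, and was at 57.4, 57.5 and 58.3 FPKM in CTR and at 56.5, 60.8 and 58.9 FPKM in miR-8485. The lowest value of all was in a miR-8485 library and so was the highest, and the log2 fold change was 0.02 ± 0.04 (SE; limma adjusted p = 0.660). CCT5 held the seed letters in its coding sequence. Values that miss the threshold do not show that these 4 mRNAs were equal between the groups, although with SEs of 0.04 a change as large as that of TCP1 lay far outside the error of each.

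The direction of CCT3, CCT5 and CCT7 depended on the scaling. The summed FPKM of a library was higher in miR-8485, so that rescaling each library to the same total (TPM, which scales levels per length to one sum) moved the median of all tested genes to −0.12 and the share of rises among called genes from 48.8% to 35.6%. Under TPM, CCT3 (−0.05), CCT5 (−0.09) and CCT7 (−0.09) had negative log2 fold changes that did not pass the threshold, CCT4 passed as lower (−0.15, limma adjusted p = 0.049), and the median of the 8 subunits was −0.23. That made 5 of 8 subunits lower, beside 38.3% of all tested genes lower and 21.2% higher under TPM. Relative to the median of all genes under TPM, CCT4 and the others lay close to where they lay in FPKM. TCP1, CCT6A, CCT8 and CCT2 were called lower by limma or voom under each of the 18 alternative settings, with log2 fold changes of −0.50 to −0.31, −0.40 to −0.22, −0.36 to −0.16 and −0.31 to −0.13.

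**Figure D2:**
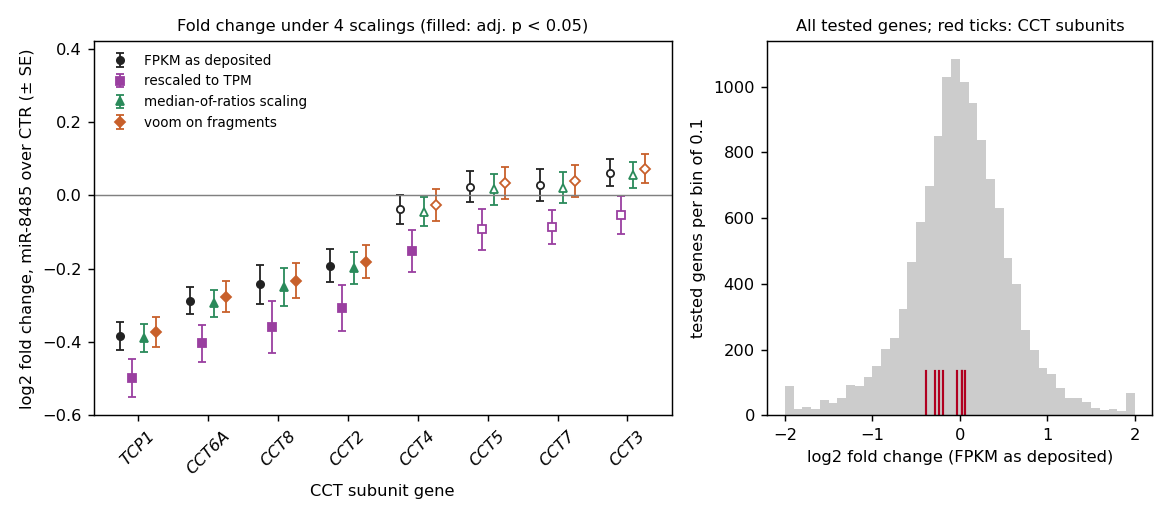
Left, log2 fold change of miR-8485 over CTR with its SE (vertical axis) for each subunit gene (horizontal axis) under FPKM as deposited, TPM, median-of-ratios scaling and voom on recovered fragments; filled symbols had an adjusted p under 0.05, and TCP1, CCT6A, CCT8 and CCT2 are filled under all 4. Right, the number of tested genes in each bin of log2 fold change, with values beyond 2 in either direction drawn in the outermost bins, and the 8 subunits as ticks, which sit between −0.38 and 0.06, inside the bulk of the distribution.

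Whether the 8 mRNAs moved by one common amount was read from their ratios to each other. The ratio of each pair of subunits was compared between the groups, 28 pairs in all, with exact permutation tests, for which 3 against 3 libraries cannot give a two-sided p below 0.10. The log2 ratio did not overlap between the groups in 22 pairs, each at that smallest p of 0.10, and the adjusted p was 0.127 at the lowest, so no pair passed. These 22 pairs were 78.6% of the 28, beside 79.1% of the 317206 pairs that can be made of the 797 genes with a mean of at least 50 FPKM, so that the count was near the background. The largest difference was that of TCP1 to CCT3, with a mean log2 ratio of −0.91 in CTR and −1.36 in miR-8485. All 16 ratios of a subunit that fell to one that did not were without overlap, a count that follows in part from how the genes were divided. Within the 4 that fell, 5 of 6 ratios did not overlap either. The log2 ratio of TCP1 differed between the group means by −0.19 against CCT2, −0.14 against CCT8 and −0.10 against CCT6A, and CCT6A and CCT8 were the pair whose ratio overlapped. Within the other 4, 1 of 6 ratios did not overlap, that of CCT3 to CCT4, with a difference of 0.10.

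In sums of FPKM, the 8 subunits made 1140 ± 24.2 FPKM in CTR and 1060 ± 7.20 FPKM in miR-8485 (SD, n = 3), a change of −6.96%. The libraries ranged from 1124 to 1168 FPKM in CTR and from 1055 to 1068 FPKM in miR-8485. The 4 genes that fell went from 525 ± 18.1 to 435 ± 3.35 FPKM and from 46.1% to 41.0% of the sum, while the other 4 went from 615 ± 6.19 to 625 ± 4.92 FPKM. The shares of the sum were not tested. They add up to a fixed total, so that falls of 4 genes raise the shares of the others with no gain of level. TCP1 made 10.4% of the sum in CTR and 8.54% in miR-8485, CCT8 14.5% and 13.2%, CCT6A 10.3% and 9.03%, and CCT2 10.9% and 10.2%. CCT3 made 19.5% in CTR and 21.9% in miR-8485, and CCT7 16.3% and 17.8%. The libraries of the groups did not overlap in any of the 8 shares, which are tied to each other. Shares within other sets of genes were not computed. In level 66.5% of all tested genes did not overlap, and in log2 ratio 79.1% of the pairs of genes of at least 50 FPKM did not. The shares do not depend on the library totals, and FPKM and TPM give the same shares, but their sizes depend on the gene lengths used.

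**Figure D3:**
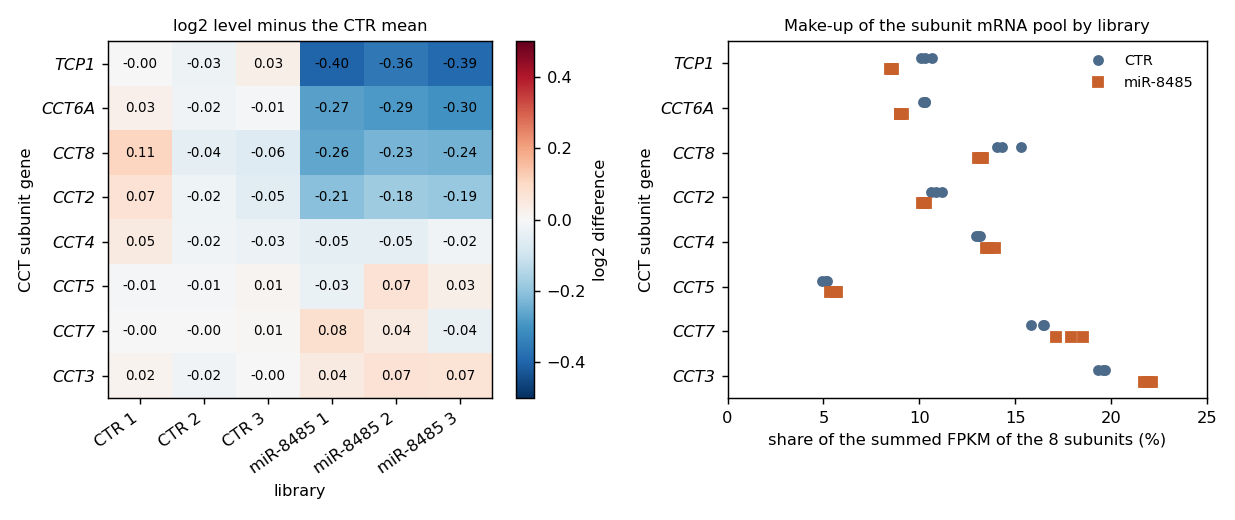
Left, log2 level of each subunit gene (rows) in each library (columns) minus its CTR mean, by colour and printed value; the 4 upper rows are negative in all miR-8485 libraries (−0.40 to −0.18) and the 4 lower rows lie near 0. Right, each subunit's share of the summed FPKM of the 8 subunits in percent (horizontal axis) in CTR (circles) and miR-8485 (squares) libraries; the shares of TCP1, CCT6A, CCT8 and CCT2 were lower and those of CCT4, CCT5, CCT7 and CCT3 higher in every miR-8485 library than in any CTR library. The shares add up to a fixed total, and in level CCT4, CCT5 and CCT7 overlapped between the groups.

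Within a group, no subunit lay further than 0.11 on the log2 scale from its group mean, whereas the 4 that fell lay 0.18 to 0.40 below their CTR mean in the miR-8485 libraries. In CTR replicate 2 all 8 lay below their CTR mean, by at most 0.04 on the log2 scale. In CTR replicate 1, CCT8 lay 0.11 and CCT2 0.07 above the CTR mean and 5 of 8 were above it, while in miR-8485 replicate 2, 7 of 8 were above their own group's mean. The widest deviation within miR-8485 was that of CCT7 in replicate 3, at −0.07. In CTR the order of level was CCT3, CCT7, CCT8, CCT4, CCT2, TCP1, CCT6A and CCT5, where CCT2 and TCP1, and TCP1 and CCT6A, overlapped and the other neighbours did not. In miR-8485 it was CCT3, CCT7, CCT4, CCT8, CCT2, CCT6A, TCP1 and CCT5, with no overlap of neighbours. In FPKM, CCT8 thus passed below CCT4, and TCP1 below CCT6A. The order between genes depends on the gene lengths used. The length behind the FPKM was 3341 bases for CCT8 and 2830 for CCT4, against 1854 and 2376 in their canonical transcripts. All 8 were abundant in FPKM, at percentiles 94.7 to 98.9 of the mean level over tested genes. CCT3 was 3.85 times as high in FPKM as CCT5 in CTR.

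In the ring, whose order is known from structures, the subunits follow each other as TCP1, CCT4, CCT2, CCT5, CCT7, CCT8, CCT6A and CCT3. The falling CCT8 and CCT6A are neighbours there, whereas TCP1 and CCT2 are each flanked by subunits that did not pass the threshold. TCP1, CCT4, CCT2 and CCT5 form the side that binds ATP strongly, and 2 of these 4 fell, as did 2 of the 4 on the other side. The 4 subunits that fell were also those of the lowest GC content. The canonical transcripts of CCT8, TCP1, CCT6A and CCT2 had a GC content of 41.5% to 42.6%, CCT4 and CCT5 had 42.9% and 44.5%, and CCT3 and CCT7 had 50.6% and 51.6%. With the trend of fold change against GC content removed across all genes, the falls of these 4 genes were smaller. They were −0.31 for TCP1, −0.22 for CCT6A, −0.16 for CCT8 and −0.13 for CCT2, and each passed. CCT4 (0.02) and CCT7 (−0.0095) changed sign without passing. The part of GC content in the falls was not tested.

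Few fragments were counted on copies of the genes, and fragments that fit a subunit and a copy alike were not examined. Of 13 listed pseudogenes of the subunits, 7 were at 0 in every library, and the highest was CCT6P1 with 97 fragments in a library, 1.43% of those of CCT6A. Genes on the opposite strand overlap TCP1 and CCT4, and the strand setting of the counting was not given in the sources used here. The last 558 bases of TCP1, which hold its seed letters, overlap the end of ACAT2, an enzyme of cytosolic acetoacetyl-CoA formation. ACAT2 was at 18.8, 18.2 and 17.0 FPKM in CTR and at 11.8, 11.4 and 10.2 FPKM in miR-8485, with a log2 fold change of −0.69 ± 0.07 (SE; limma adjusted p = 1.2e-04). ACAT2 had at most 13.9% as many fragments as TCP1 in a library. COMMD1 overlaps CCT4 by 81 bases and went from 5.53 ± 1.19 to 3.30 ± 0.269 FPKM (SD, n = 3; log2 fold change −0.71, limma adjusted p = 0.0039). TSACC overlaps CCT3 and AC012640.4 overlaps CCT5 on the opposite strand, and AF129075.1 overlaps CCT8 on the same strand. Each of them had at most 0.21% as many fragments as its subunit in a library. The part of these overlaps in the values of the subunits was not tested.

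The chaperones and factors that work with CCT, and its clients, were read from 10 lists of 64 genes, 59 of them tested. Of these 33 fell, 10 rose and 16 did not pass, beside 30.5% of all tested genes that fell and 29.1% that rose. Under TPM, 39 fell and 4 rose, and without miR-8485 replicate 3, 30 fell and 6 rose. The lists are described by their counts and were not tested against each other.

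Prefoldin, which captures nascent actin and tubulin and hands them to CCT, had 1 riser and 2 fallers among its 6 subunits. PFDN5 was at 42.1, 35.2 and 36.1 FPKM in CTR and at 55.4, 53.1 and 51.8 FPKM in miR-8485, and rose by 0.50 ± 0.07 (log2, SE; limma adjusted p = 7.7e-04). PFDN1 was at 37.7, 36.1 and 37.2 FPKM in CTR and at 28.5, 29.4 and 27.6 FPKM in miR-8485, and its log2 fold change was −0.38 ± 0.04 (SE; limma adjusted p = 2.6e-04). PFDN4 also fell (−0.24). With CTR replicate 1 or any 1 of the miR-8485 libraries left out, 1 prefoldin gene fell in place of 2, and without CTR replicate 1, 2 rose. Of the prefoldin-like proteins, URI1 (0.30) and PDRG1 (0.13) rose and UXT did not pass (0.13), and under TPM none of the 3 passed, while 1 of them rose when any 1 library other than miR-8485 replicate 2 was left out.

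Of the phosducin-like proteins, which bind CCT and modulate its folding of clients, TXNDC9 fell (−0.46) and PDCL and PDCL3 did not pass, while all 3 fell under TPM and 2 fell without CTR replicate 2 or with the length trend removed. Of the tubulin folding cofactors, which receive tubulin after CCT, TBCC (0.27) and TBCD (0.15) rose and 2 did not pass, and under TPM none passed. With CTR replicate 2, miR-8485 replicate 1 or miR-8485 replicate 3 left out, 0 of the cofactors rose, and with any other library left out 1 did. BBS12 (0.55) and BBS10 (0.22) rose and MKKS fell (−0.36) among the CCT paralogs, which assemble the Bardet-Biedl protein complex together with CCT, and the rise of BBS10 was not called under TPM. Without miR-8485 replicate 2 or replicate 3, 1 of the paralogs rose. The paralogs CCT6B and CCT8L2 were below the filter on expression. In mitochondria, HSPD1, the subunit of the other chaperonin of the cell, rose from 261 ± 6.87 to 319 ± 5.24 FPKM (SD, n = 3; log2 fold change 0.29, limma adjusted p = 5.8e-04), while its lid HSPE1 did not pass (0.06). Without CTR replicate 1, both were called higher.

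Actin and tubulin mRNAs, which encode the main clients of CCT, were mostly lower in miR-8485. Of 12 tested genes, 11 fell and TUBB3 did not pass, with a median log2 fold change of −0.52. TUBB4B, a beta-tubulin, was at 383, 371 and 370 FPKM in CTR and at 185, 185 and 186 FPKM in miR-8485, and it fell by 1.01 ± 0.04 on the log2 scale (SE; limma adjusted p = 2.4e-06). TUBB2A (−0.98), TUBA1B (−0.91) and ACTG1 (−0.68) followed. ACTG1, a cytoplasmic actin, was the most abundant of the list, at 2590 ± 126 FPKM in CTR and 1614 ± 14.3 FPKM in miR-8485 (SD, n = 3). The tubulin and actin genes are close paralogs, so that the division of fragments between them is uncertain.

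Of 13 other clients, 6 fell, 2 rose and 5 did not pass. PLK1, a mitotic kinase, was at 35.2, 36.8 and 36.0 FPKM in CTR and at 20.4, 20.8 and 19.7 FPKM in miR-8485 (log2 fold change −0.82, limma adjusted p = 8.4e-06). CDC20, an activator of the anaphase-promoting complex, fell by 0.81 on the log2 scale. CCNE1, cyclin E1, fell by 0.43.

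Of 11 genes of the cytosolic HSP70 and HSP90 system, 10 fell and HSPA8, the constitutive HSP70, did not pass (−0.10), with a list median of −0.38. Among the 10, HSPA1A passed narrowly (−0.40, limma adjusted p = 0.046). Its groups overlapped, and it had 89 to 140 fragments in a library. DNAJB1, a J-domain partner of HSP70, was at 60.8, 64.1 and 69.5 FPKM in CTR and at 32.6, 34.5 and 33.5 FPKM in miR-8485, and it fell by 0.95 ± 0.06 on the log2 scale (SE; limma adjusted p = 1.4e-05). HSPH1, a nucleotide exchange factor (−0.63), STIP1, which links HSP70 with HSP90 (−0.61), and BAG3 (−0.43) also fell. The mRNAs of the transcription factors HSF1 (−0.26, limma adjusted p = 0.0030) and HSF2 (−0.51, limma adjusted p = 0.0018), known to drive heat shock genes, were both lower in miR-8485. A part of HSF1 or HSF2 in the falls above was not tested.

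**Figure D4:**
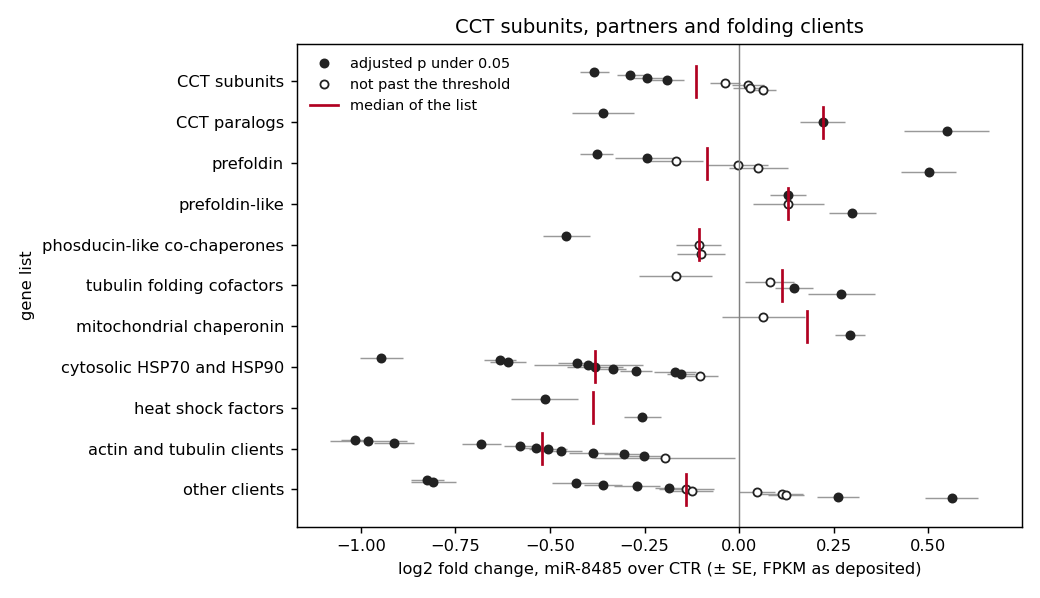
Log2 fold change of miR-8485 over CTR with its SE (horizontal axis) for each tested gene of the CCT subunit list and of the 10 lists of partners and clients (rows), filled where the adjusted p was under 0.05, with the median of each list as a vertical bar. The medians of the actin and tubulin clients (−0.52) and of the cytosolic HSP70 and HSP90 genes (−0.38) lie further to the left than that of the CCT subunits (−0.11).

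The protein-coding genes whose pattern over the 6 libraries was most like the mean of the 8 subunits were NCBP2, a subunit of the nuclear cap-binding complex (Pearson r = 0.999), BUB3, a mitotic checkpoint protein and CCT client (0.998), RABGGTB, the beta subunit of the enzyme that prenylates Rab proteins (0.998), TMX1, a thioredoxin-like protein of the endoplasmic reticulum (0.997), and PSMB7, a proteasome subunit (0.997). BUB3 went from 33.1 to 25.8 FPKM and PSMB7 from 139 to 122 FPKM. These correlations are a description over 6 libraries that share a 2-group difference, and 1141 of 10713 genes (10.7%) had an r above 0.95.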

How the data were processed

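Per the labels, RNA from independent biological replicates was made into libraries with a VAHTS kit. The authors mapped reads to hg38 with HISAT2 (2.0.5) and counted fragments with featureCounts (1.5.0-p3), per the submitters' processing notes, and they tested counts with DESeq2. The authors deposited FPKM values, and the main test used them without further scaling between libraries. Values above 0 were whole multiples of 1 fragment (within 0.05 fragments) in 100% of cases, from which the fragments were recovered. Their numbers set the counting error per gene.

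Levels were tested with limma (3.58.1, R 4.3.3, variance trend) on log2(FPKM + 0.1) for 12349 genes whose mean FPKM reached 1, with no covariate, and adjusted by Benjamini-Hochberg over all of them. This scale understates the change of low genes. Genes at 0 in all libraries numbered 26967. limma was used because the deposited unit was FPKM and not counts. The fit was tested on simulated data, in which far fewer genes changed and by more than the subunits did. The simulation therefore does not show how well changes of the subunits' size are called. Other calculations used Python 3.11.15 with pandas 2.3.3 and scipy 1.17.1. Seed letters were searched in 1 canonical transcript per gene (GENCODE release 44, hg38).

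The members and lists were chosen with earlier results of these data known. All 8 subunits are named, with up to 4 genes past the threshold of each other list, by the largest absolute change, and genes that complete a list, and the 5 genes closest in pattern by Pearson correlation. Genes overlapping a subunit were named for their position. The result of 1 gene is not reported here. Tried in turn were pseudocounts of 1 and 0.01, testing without the filter or from a mean FPKM of 5, quantile normalization, median-of-ratios scaling, TPM, removal of trends against gene length or GC content, eBayes without a trend, voom on fragments, a replicate block and each library left out.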

Additional observations from a re-analysis of the deposited data

How the results depend on the processing

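The same 4 subunits, TCP1, CCT2, CCT6A and CCT8, were called lower under all 18 alternatives, and none was called higher. CCT4 was called as well under quantile normalization (−0.11, adjusted p = 0.0295), TPM (−0.15) and removal of the length trend (−0.11), and turned positive with the GC trend removed (0.021). CCT3 (−0.053), CCT5 (−0.092) and CCT7 (−0.087) turned negative under TPM, CCT7 also under quantile normalization (−0.0065) and GC removal (−0.0095), and CCT5 without miR-8485 replicate 2 (−0.0019; 1 library left out, −0.0019 to 0.051). None of these reversals passed the threshold, and their cause was not tested. The median of the 8 subunits was −0.19 under quantile normalization, −0.23 under TPM, −0.14 with the length trend removed, −0.069 with the GC trend removed, and −0.13 to −0.084 with 1 library left out. With a filter at a mean FPKM of 5, fewer genes were tested, and 2303 rose and 2417 fell. Of the partner genes, 10 rose in the main analysis, 4 under TPM and 6 to 10 with 1 library left out, the fewest without miR-8485 replicate 3. With the replicate number as a block, 4 subunits fell and 0 rose, and 3634 genes rose and 3754 fell. Libraries of the same number correlated at 0.07, 0.03 and −0.06 in their deviations from the group means, and 1 of 3 correlated best with its own number. So few libraries cannot show whether those of the same number were paired. With 3 libraries a group, the exact tests of pairs of subunits could not pass the threshold.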
